A study of Mus musculus with 13 samples.

Results

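The immediate-early serum response genes are a set of 10 genes that quiescent fibroblasts switch on early after meeting serum, most within minutes: Fos, Fosb, Fosl1, Junb, Egr1, Egr2, Ier2, Ier3, Nr4a1 and Atf3. They were chosen by name from textbook knowledge of the serum response, with earlier results of these data known. All 10 of the 55487 genes in the count tables that carry these names were found and passed the filter on low counts in every fit. Poly-A RNA was sequenced from fibroblasts of mouse embryos (MEFs) in 2 states, primary and spontaneously immortalized. Immortalization is the process in which serially passaged cells pass through senescence and rare colonies resume growth as permanent lines. WT primary MEFs (3 libraries, clones 3, 4 and 5) were compared with the WT immortalized lines derived from them (3 libraries). Primary MEFs labelled Prkd3-/-, which are meant to lack protein kinase D3, gave 3 libraries (clones 13, 14 and 15) and immortalized lines gave 4 (13, 13a, 14 and 15). No library is labelled as coming from cells that were starved of and then given serum, so the values are levels at harvest and not a measured induction. For WT cells the study describes medium with 10% fetal calf serum (FCS), 20% FCS once the cultures were senescent and 10% FCS again for the established lines, while the time from the last medium change to lysis and the cell density are not given in the sources used here. Each line is one outgrowth, and the labels of 13 and 13a share the clone number 13, with their relation not stated.

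Immediate-early genes need no new protein to be transcribed. Serum factors act through receptor tyrosine kinases and G protein-coupled receptors on the RAS and ERK kinase cascade and on actin, which reach the promoters through serum response factor (SRF), its ternary complex and MRTF cofactors, and CREB. The mRNAs are short-lived, because AU-rich elements mark many of them for decay, and several of the proteins are transcription factors that switch on the next wave of genes or damp the response. The same genes answer stress, cell detachment and handling, so their level in a culture can differ from dish to dish.

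Depth ranged from 55436367 to 90654323 counts in the WT libraries and from 35273408 to 100441756 in those labelled Prkd3-/-, so that 3 counts corresponded to between 0.0279 and 0.0848 CPM, the unit used throughout for counts scaled to equal depth. Prkd3 itself was at 69.7 to 93.6 CPM in the 6 WT libraries and at 33.8 to 61.1 CPM in the 7 labelled Prkd3-/-, lower in each of them but still counted, and gene counts cannot show a deleted exon. The 10 fibroblast markers summed to between 29790 and 94840 CPM in the 13 libraries. Macrophage markers moved with the state: their sum was 652.9 to 683.3 CPM in WT primary MEFs and 32.9 to 94.4 CPM in the WT lines (7 of the 10 markers passed the thresholds given below as lower), and in the cells labelled Prkd3-/- it was 87.4, 1048 and 209.4 CPM in primary 13, 14 and 15 against 10.4 to 173.8 CPM in the lines, with 7 of the 10 markers at 0 in line 13. In WT cells the sums of endothelial markers (11.6 to 16.5 CPM in primary MEFs, 0.377 to 1.98 CPM in lines) and skeletal muscle markers (22.6 to 26.0 and 0.727 to 7.21 CPM) were lower in the lines too. Macrophages also use immediate-early genes, and the part of these cells in the results below was not tested. The 3 WT primary libraries were closer to each other than other replicates, with a mean chi-square per gene (1 where 2 libraries differ by sampling alone) of 5.25 to 12.4, against 409 to 644 among the WT lines. Over the 10 genes, primary 3 and 4 differed by a median of only 0.02 on the log2 scale, and primary 5 differed from them by 0.66 and 0.63. All 3 WT primary libraries held both the X-linked Xist (44.0 to 56.3 CPM) and the Y-linked Ddx3y (52.0 to 63.9 CPM), although the study describes 1 embryo for each. WT lines 4 and 5 held both too (Xist 156.6 and 55.66 CPM, Ddx3y 33.12 and 64.7 CPM). Line 3 held 173.1 CPM of Xist but 0.2129 CPM of Ddx3y. The libraries labelled Prkd3-/- held 0 to 0.1585 CPM of Xist and 47 to 148.1 CPM of Ddx3y. The part of this in the levels was not tested. The genotype coincides with its own count table and with the presence of Xist. Genotype, sex makeup and any difference in library preparation or counting thus cannot be told apart.

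Promoter sequence was read for 7 of the 10 genes from RefSeq transcription starts (GRCm38.p6), with 250 bases before each start. The other 3 were Fosl1, Egr1 and Ier2. The pentamer TGACG, or CGTCA on the other strand, is part of the cyclic AMP response element that CREB and ATF proteins bind, and it stood in the windows of 6 of the 7 genes (Fos, Fosb, Junb, Atf3, Egr2 and Nr4a1), or in 8 of their 11 windows, since Egr2 has 5 starts whose windows partly overlap, while 17.7% of all 32817 such windows held it. The windows of 4 of these genes, that of Fosb without its last 6 bases, which lie in an annotated exon, are shown to set the one with the most matches, Nr4a1, beside 3 AP-1 subunits. Capitals mark each TGACG or CGTCA.
Fos, chr12:85473640-85473889, plus strand: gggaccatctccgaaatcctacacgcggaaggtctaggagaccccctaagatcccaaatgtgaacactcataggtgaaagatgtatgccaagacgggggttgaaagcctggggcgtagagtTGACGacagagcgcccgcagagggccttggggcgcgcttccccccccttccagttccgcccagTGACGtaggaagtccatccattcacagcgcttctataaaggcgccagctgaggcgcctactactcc
Fosb, chr7:19310052-19310295, minus strand: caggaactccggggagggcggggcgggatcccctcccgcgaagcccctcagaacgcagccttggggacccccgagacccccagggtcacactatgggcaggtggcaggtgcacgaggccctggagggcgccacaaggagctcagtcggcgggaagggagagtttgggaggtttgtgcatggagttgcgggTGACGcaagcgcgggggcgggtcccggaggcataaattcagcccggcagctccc
Junb, chr8:84978749-84978998, minus strand: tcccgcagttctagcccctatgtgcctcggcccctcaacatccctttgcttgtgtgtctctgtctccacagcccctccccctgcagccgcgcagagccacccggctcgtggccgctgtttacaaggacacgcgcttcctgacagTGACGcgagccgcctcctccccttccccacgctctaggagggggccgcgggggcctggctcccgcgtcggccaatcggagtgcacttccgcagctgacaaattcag
Nr4a1, chr15:101266596-101266845, plus strand, before a start within the gene: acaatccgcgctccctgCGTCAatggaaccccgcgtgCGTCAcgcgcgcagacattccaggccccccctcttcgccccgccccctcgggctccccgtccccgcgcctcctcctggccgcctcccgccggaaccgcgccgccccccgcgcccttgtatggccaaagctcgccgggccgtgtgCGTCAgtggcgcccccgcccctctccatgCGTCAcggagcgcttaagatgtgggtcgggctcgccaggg
The Nr4a1 window held the pentamer 4 times, that of Fos 2 times, and those of Fosb and Junb 1 time each. The whole element TGACGTCA (in 1.55% of all windows; it contains both pentamers) and the AP-1 site TGACTCA or TGAGTCA (4.46%) were in none of the 7 genes' windows, and the EGR motif GCGGGGGCG or CGCCCCCGC (2.57%) was in those of Fosb and Nr4a1. The CArG box, the SRF site, was in 1.47% of all windows and among the 7 genes only in those of Egr2, in 4 of its 5. The one shared by 3 of these overlapping windows is shown with 10 bases on either side and the box in capitals.
Egr2, chr10:67537787-67537816, plus strand, before a start within the gene: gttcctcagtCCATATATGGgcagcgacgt
A match is a run of letters and not a shown site, and a motif outside these windows was not searched.

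**Figure D1:**
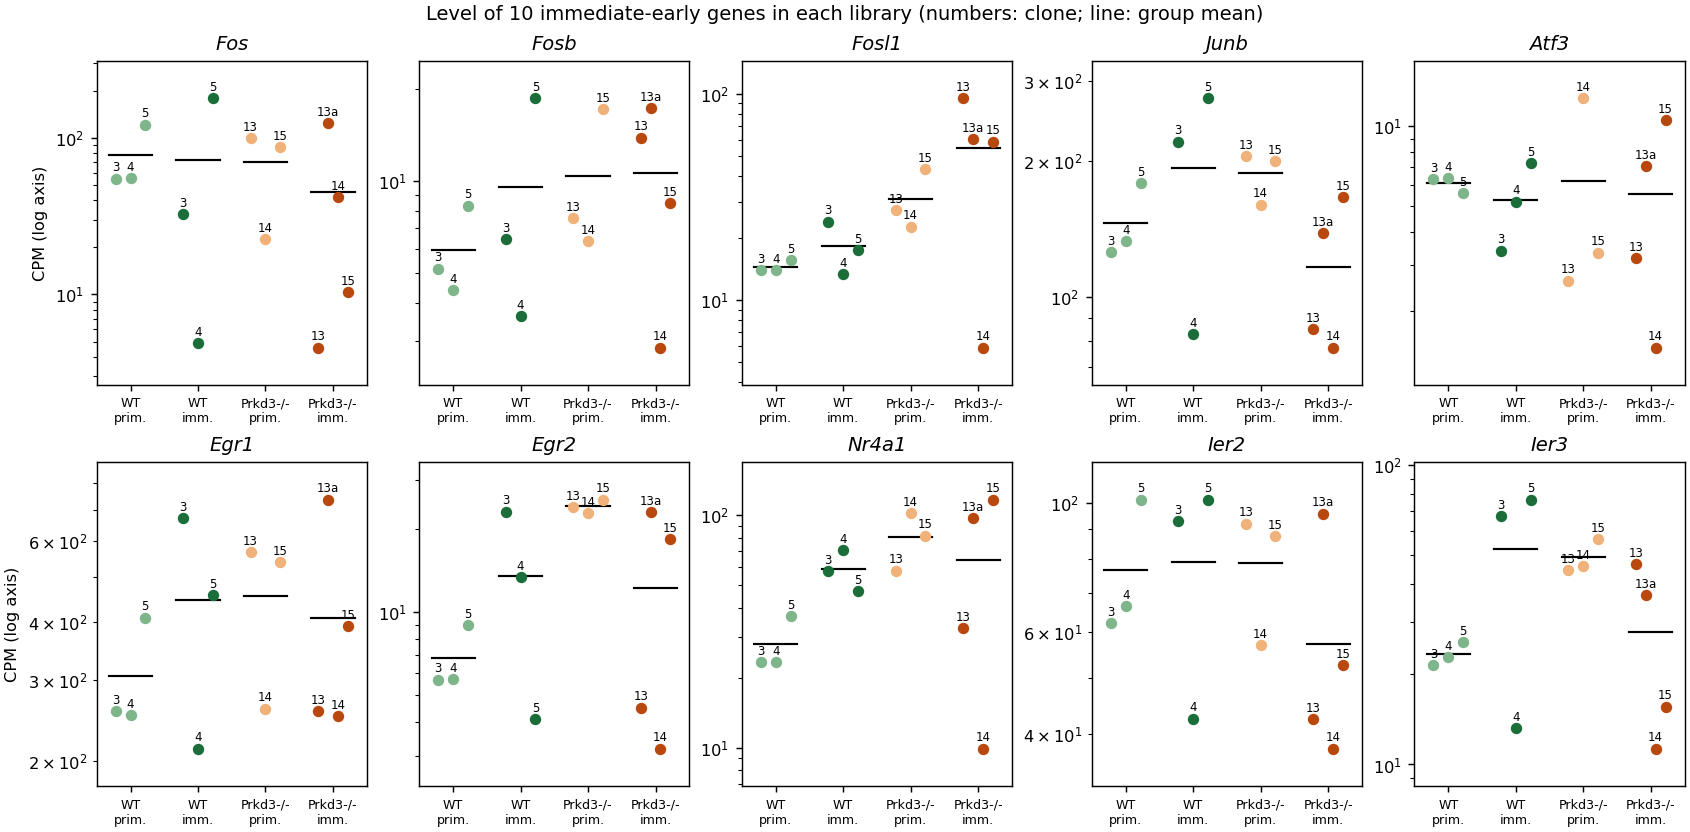
Level of each of the 10 genes in the 13 libraries, in CPM on a log axis, with the 4 groups (primary and immortalized, WT and labelled Prkd3-/-) along each panel, one point per library with its clone number, and a line at the group mean. For Fos, Fosb, Fosl1 and Egr1 the immortalized lines of both genotypes extend above and below the primary libraries, and Nr4a1 is the one gene for which all 3 WT lines lie above all 3 WT primary libraries.

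With the thresholds of the study (adjusted p under 0.01 and |Log2FC| of at least 1), none of the 10 genes was called between immortalized and primary MEFs in either genotype by edgeR or limma, and DESeq2 called Nr4a1 as higher in WT lines. In WT cells, edgeR's quasi-likelihood test with Benjamini-Hochberg adjustment called 0 of 10, where it called 361 of 19836 genes tested (1.82%, of which 12 were higher, 0.0605%, and 349 lower, 1.76%), and 1 of the 10 had an unadjusted p under 0.05, against 19.7% of all genes. DESeq2 called 1 of 10 and limma 0. With the embryo as a replicate block, edgeR called 0 genes of the whole table in WT cells. The cells labelled Prkd3-/- gave 0 of 10 in edgeR, 0 of 20298 genes (0%) and 0 of 10 at an unadjusted p under 0.05 (6.56% of all genes), and both DESeq2 and limma called 0 of the 10. The median Log2FC of the 10 genes was 0.48 in WT cells, where 8 were higher in the lines, against a median of 0.04 over all genes tested, and −0.39 in cells labelled Prkd3-/-, where 8 were lower, against 0.07. The values of each gene in each library follow.

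The first 5 genes encode basic leucine zipper proteins of the AP-1 and ATF family, which bind DNA as dimers. Fos (chr12:85473890-85477273, GRCm38), the founding FOS subunit of AP-1, which cannot pair with itself and needs a JUN partner, was at 54.9, 55.1 and 122 CPM in WT primary 3, 4 and 5 and at 32.7, 4.87 and 178.5 CPM in WT lines 3, 4 and 5. Line 4 was far below the lowest primary library and line 5 above the highest, so the groups overlapped and the highest line exceeded the lowest 36.6-fold. Fos in cells labelled Prkd3-/- was at 99.7, 22.4 and 86.9 CPM in primary 13, 14 and 15, and at 4.58, 124, 41.6 and 10.4 CPM in lines 13, 13a, 14 and 15. Lines 13 and 15 lay below each primary library, line 13a above each, and the lines spanned a 27.1-fold range. Lines 13 and 13a, which share a clone number, were thus the lowest and the highest of the 4. The Log2FC of Fos was −0.09 in WT cells (standard error 1.16, 95% interval −2.94 to 2.77, edgeR adjusted p = 0.978) and −0.62 in cells labelled Prkd3-/- (1.05, −3.08 to 1.85). Without WT line 5 the WT value was −2.05 and without line 4 it was 0.47, so single lines set its direction.

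Fosb (chr7:19302696-19310051), a FOS relative whose full-length protein is a strong activator, had the lowest mean of the members of its family in every group. It was at 5.17, 4.41 and 8.32 CPM in the WT primary libraries and at 6.47, 3.62 and 18.6 CPM in WT lines 3, 4 and 5. Line 5 held more than any WT primary library and line 4 less, as for Fos. The cells labelled Prkd3-/- held 7.57, 6.37 and 17.2 CPM in primary 13, 14 and 15 and 13.9, 17.3, 2.85 and 8.46 CPM in lines 13, 13a, 14 and 15. Line 14 was below the other libraries and line 13 was above its own primary culture, unlike for Fos. Its Log2FC was 0.70 in WT cells (standard error 0.64, 95% interval −0.88 to 2.27, edgeR adjusted p = 0.604) and 0.05 in cells labelled Prkd3-/- (0.63, −1.42 to 1.52).

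Fosl1 (chr19:5447547-5455946) encodes FRA1, which lacks the strong activation domain of FOS and accumulates later and for longer in cells with sustained ERK activity. Of its exon bases 57.2% are shared with Ccdc85b on the other strand, and the counting of the WT libraries ignored strand, so part of these counts may belong to that gene, which had 32.3 to 105 CPM in the 13 libraries. Fosl1 was at 13.96, 13.98 and 15.7 CPM in the WT primary libraries and at 24.04, 13.3 and 17.4 CPM in WT lines 3, 4 and 5. These groups overlapped only through line 4. The cells labelled Prkd3-/- held 27.3, 22.7 and 43.2 CPM in primary 13, 14 and 15, each above the highest WT primary library, and 94.9, 60.2, 5.89 and 58.6 CPM in lines 13, 13a, 14 and 15. Lines 13, 13a and 15 were thus above every primary library and line 14 was below every other library of the series. Log2FC values were 0.33 in WT cells (standard error 0.22, 95% interval −0.20 to 0.86, edgeR adjusted p = 0.466) and 0.84 in cells labelled Prkd3-/- (0.77, −0.96 to 2.63).

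Junb (chr8:84976910-84978718), a JUN relative that pairs with FOS proteins and restrains c-JUN, was among the most abundant of the set. Its level was 125.8, 133 and 179 CPM in the WT primary libraries and 221, 82.6 and 275 CPM in WT lines 3, 4 and 5. Lines 3 and 5 were above all WT primary libraries and line 4 below them. In cells labelled Prkd3-/- the primary libraries 13, 14 and 15 were at 205, 160.1 and 200 CPM and lines 13, 13a, 14 and 15 at 84.8, 139, 77.3 and 166 CPM. Lines 13, 13a and 14 were below all 3 primary libraries, and line 15 alone overlapped them. The Log2FC was 0.41 in WT cells (standard error 0.44, 95% interval −0.68 to 1.49, edgeR adjusted p = 0.666) and −0.68 in cells labelled Prkd3-/- (0.30, −1.38 to 0.02), which was the smallest unadjusted p of the 10 genes there, 0.0555, in edgeR's test, with an adjusted p of 0.769. Each of the 4 lines labelled Prkd3-/- was below its own primary culture.

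Atf3 (chr1:191170296-191218039), a stress-induced repressor of the ATF family, was low throughout. It was at 6.32, 6.36 and 5.58 CPM in the WT primary libraries and at 3.39, 5.19 and 7.27 CPM in lines 3, 4 and 5. The WT groups overlapped and their means, 6.09 ± 0.438 and 5.28 ± 1.94 CPM (SD, n = 3), differed by less than the spread of the lines. The cells labelled Prkd3-/- held 2.61, 12.8 and 3.33 CPM in primary 13, 14 and 15 and 3.18, 7.07, 1.46 and 10.5 CPM in lines 13, 13a, 14 and 15. Clone 14 thus had the highest primary and the lowest immortalized value, while line 15 was above its own primary culture. Log2FC values were −0.20 in WT cells (standard error 0.29, 95% interval −0.92 to 0.53) and −0.16 in cells labelled Prkd3-/- (0.79, −2.02 to 1.70).

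The next 3 genes encode DNA-binding factors of other families. Egr1 (chr18:34859823-34864984), a zinc finger activator that binds GC-rich promoters and is a direct SRF target, was the most abundant of the set before correction for length. It was at 256.5, 252 and 409 CPM in the WT primary libraries and at 673, 213 and 457 CPM in WT lines 3, 4 and 5, so that lines 3 and 5 were above all WT primary libraries and line 4 below them. Primary 13, 14 and 15 labelled Prkd3-/- held 568, 259.7 and 539 CPM, and lines 13, 13a, 14 and 15 held 256.3, 738, 250.2 and 391.5 CPM. Line 13a was highest of all 13 libraries, and lines 13 and 14 lay just under the lowest primary library of their genotype. Its Log2FC was 0.55 in WT cells (standard error 0.44, 95% interval −0.53 to 1.63, edgeR adjusted p = 0.549) and −0.15 in cells labelled Prkd3-/- (0.46, −1.23 to 0.93).

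Egr2 (chr10:67535475-67542188) is the EGR relative best known from Schwann cell myelination. Among the 7 genes whose promoter windows were read, which leave out Egr1, its windows alone held the CArG box. Egr2 was at 5.69, 5.71 and 8.98 CPM in the WT primary libraries and at 23.1, 13.4 and 4.09 CPM in WT lines 3, 4 and 5. Here line 5, the highest for Fos, Fosb and Junb, was the lowest. All 3 primary libraries labelled Prkd3-/- were close together, at 23.9, 22.8 and 25.5 CPM, above the WT primary libraries, and lines 13, 13a, 14 and 15 were at 4.51, 22.9, 3.20 and 18.3 CPM. Lines 13a and 15 thus stayed near the primary level and lines 13 and 14 were several times lower. The Log2FC was 0.99 in WT cells (standard error 0.60, 95% interval −0.49 to 2.46, edgeR adjusted p = 0.430) and −0.97 in cells labelled Prkd3-/- (0.67, −2.54 to 0.60).

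Nr4a1 (chr15:101254269-101274795) encodes an orphan nuclear receptor of the NUR77 family that acts without a known hormone and is controlled through its amount. It was at 23.3, 23.3 and 36.9 CPM in the WT primary libraries and at 57.8, 70.9 and 47.2 CPM in WT lines 3, 4 and 5. The groups did not overlap, and the order of the lines was the reverse of that of Fos, with line 4 highest and line 5 lowest. The WT means were 27.8 ± 7.88 CPM and 58.6 ± 11.9 CPM (SD, n = 3), with a Log2FC of 1.08 (standard error 0.24, 95% interval 0.48 to 1.68). In edgeR its adjusted p of 0.0715 (unadjusted 0.00473) missed the threshold of 0.01, as did limma's 0.193, whereas DESeq2 gave 0.00286 and called it. No other member was without overlap between the WT states, and 30.2% of all 21197 genes were so, 13% in the higher direction, and 1 of 10 is below both shares. Labelled Prkd3-/-, its level was 57.8, 102.5 and 81.8 CPM in primary 13, 14 and 15 and 32.8, 97.7, 9.92 and 117 CPM in lines 13, 13a, 14 and 15. Those lines lay on both sides of the primary libraries, and the Log2FC was −0.32 (standard error 0.74, 95% interval −2.04 to 1.41, edgeR adjusted p = 0.95).

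The last 2 genes encode small immediate early response proteins. Ier2 (chr8:84661331-84662854), a nuclear protein of little known function in transcription and cell movement, was at 62.1, 66.5 and 101 CPM in the WT primary libraries and at 93.0, 42.5 and 101 CPM in WT lines 3, 4 and 5. Clone 5 had the same level in both states and line 4 was below all WT primary libraries. Primary 13, 14 and 15 labelled Prkd3-/- held 92.1, 56.8 and 87.5 CPM, against 42.3, 95.8, 37.7 and 52.5 CPM in lines 13, 13a, 14 and 15. Lines 13, 14 and 15 were below each primary library and 13a was above them. The Log2FC was 0.05 in WT cells (standard error 0.37, 95% interval −0.86 to 0.96) and −0.46 in cells labelled Prkd3-/- (0.36, −1.30 to 0.39).

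Ier3 (chr17:35821684-35822923), also known as IEX-1, a target of NF-kB, p53 and ERK that affects survival under stress, was at 21.5, 22.9 and 25.6 CPM in the WT primary libraries and at 67.6, 13.2 and 76.6 CPM in WT lines 3, 4 and 5. Lines 3 and 5 were 3.15-fold and 2.99-fold above their own primary cultures and line 4 was below all 3. In cells labelled Prkd3-/- the primary libraries 13, 14 and 15 were at 44.7, 46.0 and 56.7 CPM, above the WT primary libraries, and lines 13, 13a, 14 and 15 at 46.6, 36.9, 11.3 and 15.6 CPM. Lines 14 and 15 were the lowest there. The Log2FC was 1.17 in WT cells (standard error 0.61, 95% interval −0.33 to 2.68, edgeR adjusted p = 0.363) and −0.82 in cells labelled Prkd3-/- (0.49, −1.96 to 0.33). Without WT line 4 the WT value was 1.63, with an edgeR adjusted p of 0.00513, and passed the thresholds.

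**Figure D2:**
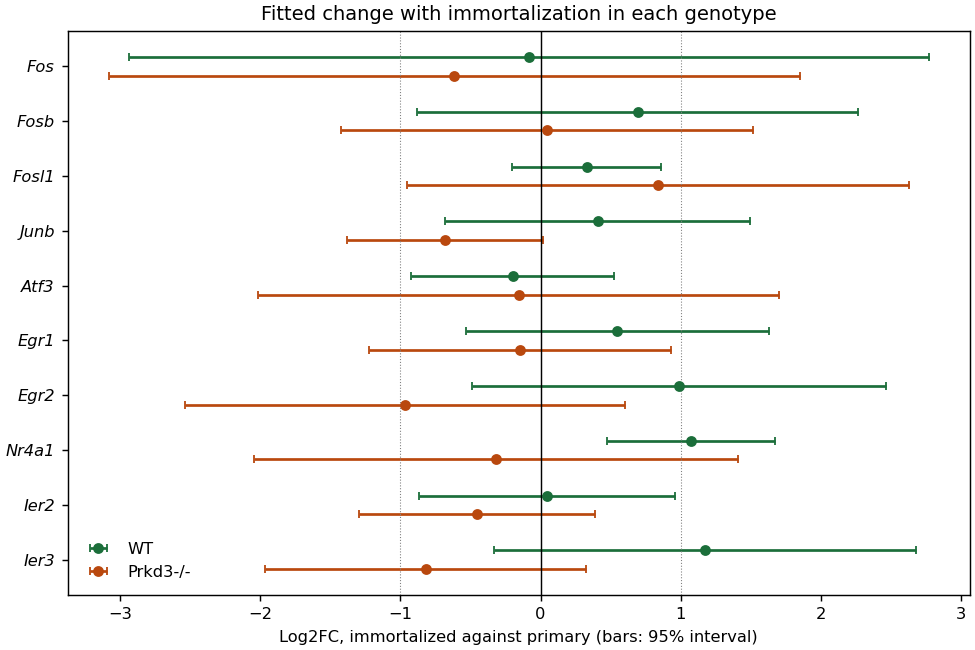
Fitted Log2FC of immortalized against primary MEFs (x axis) for the 10 genes (rows) in WT cells and in cells labelled Prkd3-/-, with points at the estimate and bars for the 95% interval of edgeR's fit. In WT cells the interval of Nr4a1 alone, 0.48 to 1.68, lies to one side of 0, and in cells labelled Prkd3-/- none does.

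The difference of the immortalization effect between the genotypes was tested directly over all 13 libraries. In edgeR's interaction test 0 of the 10 genes and 0 of 21197 genes tested (0%) had an adjusted p under 0.05, while 1 member and 3.97% of all genes had an unadjusted p under 0.05. DESeq2 called 37 genes and limma 0, none of them members. The member was Ier3, whose Log2FC was lower by 1.98 in cells labelled Prkd3-/- (estimate −1.98, standard error 0.83, 95% interval −3.80 to −0.15, unadjusted p = 0.0359, edgeR adjusted p = 1). Estimates for Egr2 (−1.95, interval −4.10 to 0.21), Nr4a1 (−1.38, −3.36 to 0.59) and Junb (−1.08, −2.28 to 0.13) were also below −1 with intervals that held 0. Of the 10 estimates 8 were negative, with a median of −0.66 against 0.06 over all genes tested.

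The levels of the primary cultures are given beside this comparison, and their part in it was not tested. Fosl1, Egr2, Nr4a1 and Ier3 were higher in all 3 primary libraries labelled Prkd3-/- than in all 3 WT primary libraries. This makes 4 of 10 members without overlap, all in the higher direction, where 33.7% of 21197 genes did not overlap and 15.3% were higher. For Fosl1 the limit of its exon shared with Ccdc85b holds here too. Ccdc85b was itself at 52.5 to 75.8 CPM in the primary libraries labelled Prkd3-/- and at 36.0 to 38.7 CPM in the WT ones. Mean Egr2 was 24.1 ± 1.35 CPM against 6.79 ± 1.90 CPM in WT, Nr4a1 80.7 ± 22.4 against 27.8 ± 7.88, Ier3 49.1 ± 6.60 against 23.3 ± 2.09 and Fosl1 31.1 ± 10.7 against 14.5 ± 0.990 (SD, n = 3 each). Between the 2 groups of lines 0 of 10 were without overlap (8.65% of all genes), and between the lines and primary MEFs labelled Prkd3-/- also 0 of 10 (9.78%). The main effect of genotype was not tested, since it coincides with the count table.

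**Figure D3:**
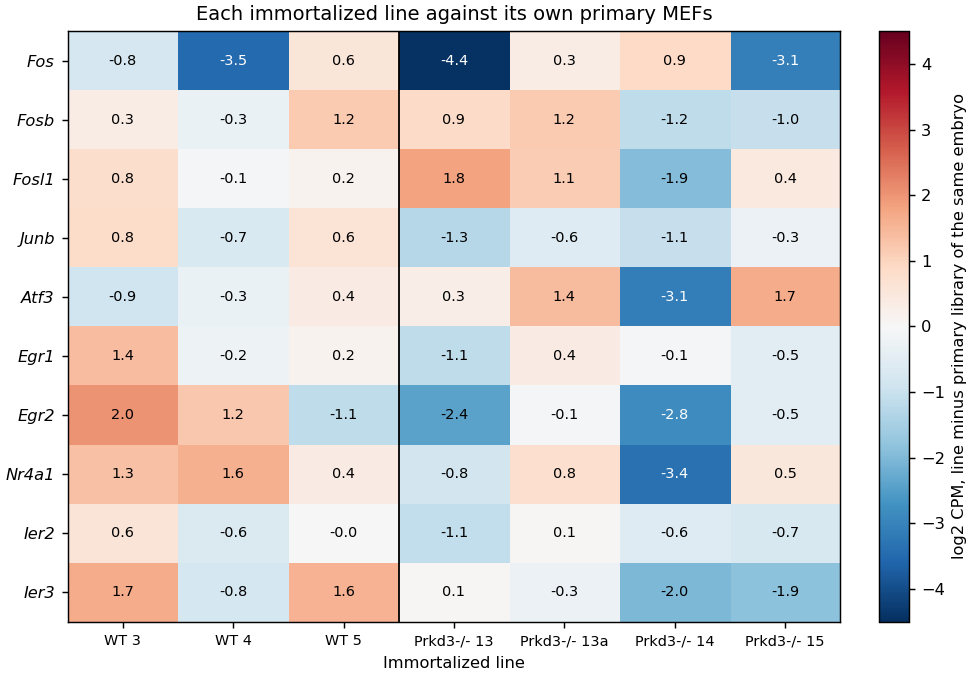
Log2 ratio of CPM in each of the 7 immortalized lines (columns) to the primary library with the same clone number, 13 for both 13 and 13a, for the 10 genes (rows), with red for higher and blue for lower and the value in each cell. No gene has one sign in all 7 lines, and most cells are blue in WT line 4 and in lines 13, 14 and 15 labelled Prkd3-/-.

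Set against the primary library of its own clone number, each line had its own pattern. In WT line 3, 8 of the 10 genes were higher and 2 lower (median 0.80 on the log2 scale). In line 5, 8 were higher, Egr2 was lower and Ier2 was at 101 CPM in both (median 0.37), while in line 4, 2 were higher and 8 lower (median −0.29). Line 4 was not low for all: Egr2 and Nr4a1 were 2.35-fold and 3.04-fold above primary 4, while Fos was at 0.0883 of it. Among the lines labelled Prkd3-/- the number higher was 4 in line 13, 7 in 13a, 1 in 14 and 3 in 15, with medians of −0.97, 0.35, −1.55 and −0.47. In line 14, 7 of 10 were at least 2-fold lower, where 16.5% of all 21197 genes were. The other 3 were Egr1 and Ier2, at 0.963 and 0.664 of their primary level, and Fos, 1.85-fold above its own primary culture. Lines 13 and 13a, set against the same primary library, had Fos at 0.0459 and 1.25 of it and Egr2 at 0.188 and 0.957, but Fosl1 at 3.47 and 2.20. These 2 ratios share a primary library and are no independent pair.

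Single libraries stood at the end of the range for many members at once. WT primary 5 was the highest of its group for 9 of the 10 genes, all but Atf3, and WT line 4 the lowest of its group for 7. Primary 14 labelled Prkd3-/- was the lowest of its group for 7 and line 14 for 9. Primary 14 was also the primary library with the highest macrophage marker sum, and line 14 the line with the lowest. By the mean log2 CPM of these markers line 13 was the lowest instead, at −4.319 against −2.125 in line 14. The part of this in the levels was not tested. Genes that share a library share its culture dish and handling, so the members are not independent of each other. How often each library was at an end over all genes is not given here, so these counts are not shown to be particular to the members. WT primary 3 and 4 were closer to each other (mean chi-square per gene 5.25) than to primary 5 (12.4 and 10.5).

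**Figure D4:**
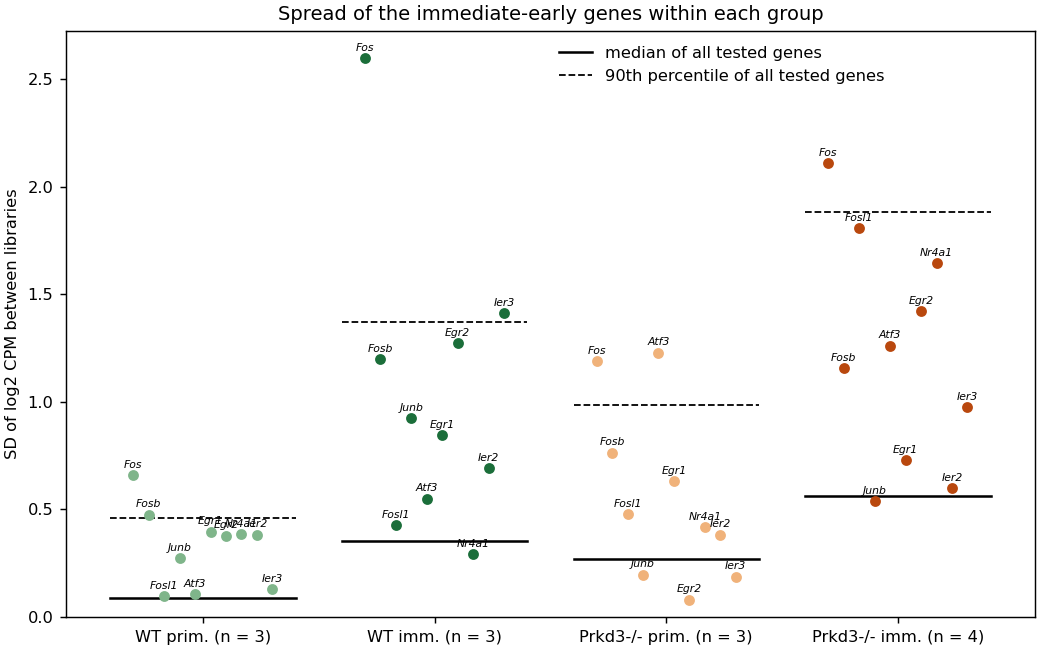
Standard deviation of log2 CPM between the libraries of each group for the 10 genes (points, named), with the median (solid line) and the 90th percentile (dashed line) of the 21197 genes tested. Most points lie above the median line in each group, and Fos lies above the 90th percentile in all 4.

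In each group the median spread of the 10 genes was above that of all genes, while few were among the most variable genes of the table. The median standard deviation of log2 CPM was 0.38 over the members and 0.09 over all 21197 genes in WT primary MEFs, 0.88 and 0.35 in WT lines, 0.45 and 0.27 in primary MEFs labelled Prkd3-/-, and 1.21 and 0.56 in their lines. Fos had the largest spread of the 10 in 3 of the 4 groups, at 0.66, 2.597 and 2.11 in WT primary MEFs, WT lines and lines labelled Prkd3-/-, and was second to Atf3 in primary MEFs labelled Prkd3-/- (1.19 and 1.23). It exceeded 92.3% to 97.3% of all genes in the 4 groups. Above the 90th percentile of all genes were 2, 2, 2 and 1 of the 10 in the 4 groups, in the order just given. Below the median of all genes were Nr4a1 in WT lines (0.29), Egr2 (0.08), Ier3 (0.19) and Junb (0.20) in primary MEFs labelled Prkd3-/-, and Junb in the lines labelled Prkd3-/- (0.54). These are descriptions over 3 or 4 libraries, and spread between dishes of one culture cannot be told apart from spread between lines, since each culture was sequenced once.

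**Figure D5:**
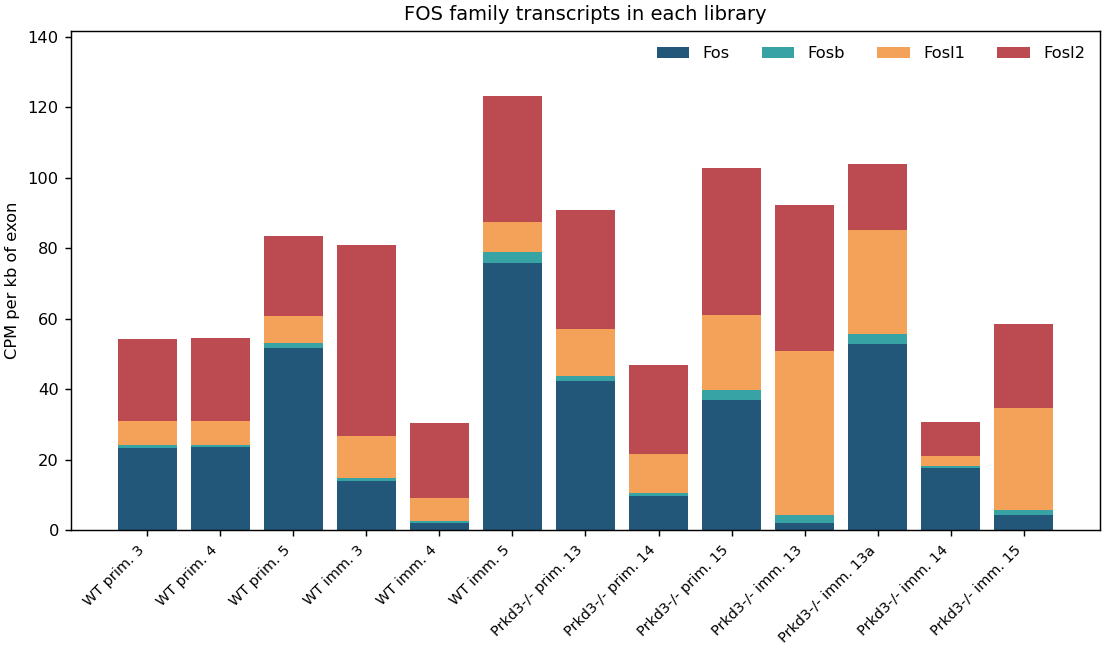
Transcripts of the 4 FOS family genes in each of the 13 libraries, stacked, in CPM per kb of exon. The Fos share runs from 2.11% in line 13 labelled Prkd3-/- to 62.0% in WT primary 5, and Fosl1 makes up 50.7% and 49.3% in lines 13 and 15 labelled Prkd3-/-.

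Corrected for exon length, the FOS family differed in makeup between lines. The fourth family gene, Fosl2, was added to complete the family with its values known. Fos made up 43.0%, 43.1% and 62.0% of the family's CPM per kb in WT primary 3, 4 and 5 and 17.1%, 6.81% and 61.7% in the lines derived from them. Fosl2 was level with Fos in WT primary 3 and 4, at 42.8% and 43.0%, and was at 27.2% in primary 5. It led in WT lines 3 and 4, at 67.0% and 69.7%, and was at 28.95% in line 5. In primary 13, 14 and 15 labelled Prkd3-/- Fosl2 was at 37.1%, 53.5% and 40.7% and Fos at 46.7%, 20.4% and 35.95%. Among the lines labelled Prkd3-/- the Fos share was 2.11% in 13, 50.9% in 13a, 57.9% in 14 and 7.54% in 15, and Fosl1 was the larger part where Fos was low, at 50.7% in 13 and 49.3% in 15, within the limit of its shared exon. Fosb was at most 2.68% of the family in any library. Shares within a family are tied to each other, since one can only be higher where another is lower.

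Levels per kb of exon put the members in a similar order in the 4 groups. In WT primary MEFs the means were 80.6 CPM per kb for Junb, 68.2 for Egr1, 50.3 for Ier2, 32.8 for Fos, 20.6 for Ier3, 7.94 for Nr4a1, 7.15 for Fosl1, 2.83 for Atf3, 1.999 for Egr2 and 0.955 for Fosb (n = 3). Ranges of neighbours overlapped from Junb down to Fos, between Nr4a1 and Fosl1 and between Atf3 and Egr2, so these neighbours cannot be ordered. Junb and Egr1 had the highest 2 means in each group, with Egr1 first in the lines labelled Prkd3-/- and Junb in the other 3 groups, and Fosb had the lowest.

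Profiles of the members were compared across the 13 libraries. Likeness was measured as the root mean square difference of log2 CPM after each gene was centred on its own mean, where 0 is the same profile and the libraries are shared by all genes. Junb and Ier2 were the closest pair of members at 0.29, followed by Egr1 and Ier2 at 0.35, Junb and Egr1 at 0.44 and Egr2 and Nr4a1 at 0.60. Fos was farthest from the others, 1.31 from its nearest member, Ier2. The measure grows with a gene's own spread, which was 1.68 for Fos and 0.50 to 0.60 for Junb, Egr1 and Ier2 on the same scale, so genes that vary little lie close together. Among all 21196 other genes, Ier2 was the nearest of Junb and the second nearest of Egr1, and Junb was the second nearest of Ier2, after Gm15860 at 0.28. The nearest gene was Tagln3 for Fos (0.65), AC132455.3 for Fosb (0.43), Gm14057 for Fosl1 (0.36), Atp6ap2 for Atf3 (0.44), Gm13594 for Egr1 (0.34), Tll1 for Egr2 (0.55), Snora41 for Nr4a1 (0.48) and Timp1 for Ier3 (0.41).

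Other genes of the response were described from lists of textbook members, in which no gene passed the thresholds in either genotype by edgeR. Of 32 immediate-early effectors and feedback regulators, such as dual-specificity phosphatases and secreted growth factors, 25 were higher in WT lines and 8 had an unadjusted p under 0.05, which 19.7% of all genes had (median Log2FC 0.71, all genes 0.04), whereas 21 were lower in lines labelled Prkd3-/- (median −0.14, all genes 0.07). The estimate of the difference between genotypes was negative for 28 of the 32, with a median of −0.80. The 32 genes summed to 10500 CPM in WT line 3 but 3534 and 3850 CPM in lines 4 and 5, against 3179 to 3595 CPM in WT primary MEFs. By mean log2 CPM lines 3 and 5 were at 6.289 and 5.587 and line 4 at 4.845, against 5.072 to 5.258 in primary MEFs. The smallest WT p-values among the 32 were those of Gadd45a, a growth arrest and DNA damage protein (Log2FC 1.43, standard error 0.28, edgeR adjusted p = 0.0471), and Plk2, a polo-like kinase (1.29, 0.30, 0.0796). Of 19 tested immediate-early transcription factors outside the 10, 15 were higher in WT lines and 3 had an unadjusted p under 0.05. These were Bhlhe40, a helix-loop-helix repressor (Log2FC 1.44, standard error 0.23, edgeR adjusted p = 0.0253), Nr4a3, the close relative of Nr4a1, and Id2, an inhibitor of helix-loop-helix factors that was lower and is named after its values were seen (−0.62, 0.17, 0.114). Nr4a3 had a Log2FC of 1.35 in WT cells (standard error 0.34, edgeR adjusted p = 0.0923) and −0.82 in cells labelled Prkd3-/- (0.35, 0.763), at levels of 0.861 to 4.97 CPM in the 13 libraries. Its difference between the genotypes was −2.15 (standard error 0.48, unadjusted p = 0.000851, edgeR adjusted p = 1).

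In WT cells the lists of genes upstream of the response had smaller medians than the 10 members (0.48) and the 32 effectors (0.71). The immediate-early transcription factors outside the 10 had a median of 0.15, within the range of the upstream lists. Of 11 genes for SRF, its cofactors and CREB, 9 were higher in WT lines (median Log2FC 0.17). The smallest p among them was that of a gene lower in the lines, Myocd, the muscle-restricted SRF cofactor (Log2FC −2.26, standard error 0.32, edgeR adjusted p = 0.0166 in WT cells, and −2.42, 1.07, 0.769 in cells labelled Prkd3-/-). Of 14 genes of the RAS to RSK cascade 10 were (median 0.11). Rps6ka1, an ERK-activated kinase of the RSK family, was lower in both genotypes (Log2FC −1.46, standard error 0.25, edgeR adjusted p = 0.0323 in WT cells, and −1.31, 0.36, 0.556 in cells labelled Prkd3-/-). Of 12 receptors for serum factors 9 were higher in WT lines (median 0.31). Egfr had a Log2FC of 0.63 in WT cells (standard error 0.16, edgeR adjusted p = 0.0954), and Lpar1, which was lower, −1.15 (0.38, 0.18). In cells labelled Prkd3-/- their values were −0.04 (0.56, 0.994) and −0.16 (0.35, 0.944). None of these genes passed the thresholds.

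Further lists were read beside the members in both genotypes, and their part in the members' levels was not tested. An unadjusted p under 0.05 in edgeR was found for 19.7% of all genes in WT cells and 6.56% in cells labelled Prkd3-/-. All 10 cytoskeletal targets of MRTF and SRF, such as actins and their binding proteins, had a positive Log2FC in WT cells (median 0.36). In cells labelled Prkd3-/- 7 of 10 had a negative one (median −0.37), and 0 had an unadjusted p under 0.05 in either genotype. The WT lines were not alike in these targets. Their sum was 33090 CPM in line 3 but 14510 and 11280 CPM in lines 4 and 5, against 15270 to 15890 CPM in WT primary MEFs. The integrated stress response, which shares Atf3 as a target and is read here from 9 other genes, had 8 positive in WT cells, 8 at an unadjusted p under 0.05 and a median Log2FC of 0.94, but 5 positive, 0 at an unadjusted p under 0.05 and a median of 0.12 in cells labelled Prkd3-/-. Ppp1r15a, which ends that response by recruiting a phosphatase and is itself induced by serum, had an adjusted p of 0.00691 in edgeR but a Log2FC of 0.87 (standard error 0.09), under the threshold of 1. The 8 heat shock genes, a sign of handling, were all positive in WT cells (median 0.31), with 2 at an unadjusted p under 0.05, and 3 of 8 in cells labelled Prkd3-/- (median −0.12). They summed to 673.5 to 699.3 CPM in WT primary MEFs and 753.6 to 934.2 CPM in WT lines. Proliferation markers went the other way, with 10 of 10 negative in WT cells and 10 of 10 positive in cells labelled Prkd3-/- (medians of −0.32 and 0.61), and 1 of 10 at an unadjusted p under 0.05 in each. Single lines differed. The markers summed to 784.1, 542.2 and 229.5 CPM in WT lines 3, 4 and 5, against 612.1 to 698.1 CPM in WT primary MEFs. In lines 13, 13a, 14 and 15 labelled Prkd3-/- the sum was 2396, 570.2, 650.9 and 1183 CPM, against 474.2 to 1052 CPM in their primary MEFs.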

How the data were processed

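Poly-A RNA of 13 MEF cultures was sequenced with paired reads of 100 bases. WT reads were aligned by the authors to the mm10 genome (STAR 2.7.10a, SAMtools 1.18), and gene counts on Ensembl release 102 were made with Subread's featureCounts (2.0.6), ignoring strand and assigning a pair to every gene it overlapped. The steps behind the second table are not given in the sources used here. The authors deposited raw counts per gene without normalization, and these counts were used as they stand.

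CPM values were scaled by TMM over all 13 libraries, and the floor of 3 counts takes in counting error alone. Each genotype was fitted over all genes with edgeR 4.0.16 (R 4.3.3), using the filterByExpr filter, TMM, robust quasi-likelihood F tests and Benjamini-Hochberg adjustment. Standard errors and 95% intervals come from the F statistic. DESeq2 1.42.0, limma 3.58.1, other scalings and filters, a replicate block and the omission of each library were the alternatives. The fits were tested on simulated data. Lines and primary cultures share clone numbers, which follow the embryo in the study's WT samples. The deviations of same-numbered libraries from their group means correlated at −0.0333, 0.0186 and −0.0393 in WT cells and at −0.283 to 0.141 in cells labelled Prkd3-/-. Pairs with different numbers correlated at −0.0316 to 0.0616 and at −0.304 to 0.336. Same-numbered pairs thus did not stand out as more alike, also where a line is set against its own primary culture. The study describes the WT primary MEFs as coming from different embryos, each culture was sequenced once, and the origin of the cultures labelled Prkd3-/- is given here by their clone numbers alone. The 10 genes and all lists were chosen with earlier results of these data known. All 10 were named. For each other list the rule allowed up to 4 genes past the thresholds or else the 2 of smallest WT p, and for each member the 3 nearest profiles, and not all of these are quoted. Symbols matched 55141 of 55487 identifiers. Columns of other samples numbered 0.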

Additional observations from a re-analysis of the deposited data

How the results depend on the processing

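No alternative called a member in cells labelled Prkd3-/- or in the difference between genotypes, and with the clone number as a replicate block the number of members called was 0 in all 3 comparisons. In WT cells it was 0 except with DESeq2 (1, Nr4a1) and without WT line 4 (1, Ier3), a range of 0 to 1 when each library was left out. The number of WT genes called over the whole table was less settled: 361 against 1361 with DESeq2, 184 with limma, 157 with at least 10 counts in every library, 868 at an adjusted p under 0.05, 0 with the replicate block, 0 in a joint fit of 13 libraries, and 48 to 743 when a library was left out, the lowest 3 of these without a primary library. DESeq2 called 190 genes in cells labelled Prkd3-/-.

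Signs turned for estimates near 0. Ier2 in WT cells had a Log2FC of −0.077 by library size alone, −0.014 in limma and −0.018 with the replicate block. The block gave, in cells labelled Prkd3-/-, −0.32 for Fosb and 0.17 for Atf3, and summing lines 13 and 13a gave −0.22 for Fosb. For the difference between genotypes the block gave 0.30 for Fos and −0.13 for Fosl1, and no filter on low counts gave −0.0057 for Atf3. Leaving out single libraries moved the WT Log2FC from −2.05 to 0.47 for Fos, from −0.25 to 1.09 for Fosb, from −0.51 to 0.049 for Atf3 and from −0.19 to 0.35 for Ier2. The values in cells labelled Prkd3-/- moved from −0.31 to 0.62 for Fosb, from −0.66 to 0.92 for Atf3, from −0.61 to 0.039 for Egr1 and from −0.77 to 0.043 for Nr4a1. The difference between genotypes moved from −1.80 to 1.41 for Fos, from −1.04 to 0.27 for Fosb and from −0.46 to 1.12 for Atf3. In the alternatives run, Fosl1, Junb, Egr2 and Ier3 kept their sign within both genotypes, and the cause of the other turns was not tested. With 3 or 4 libraries a group and Fos spread over more than 20-fold among lines, intervals of several log2 units limit what can be shown, and depth is not the limit, since every member was far above the floor in every library.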
